A study of Mus musculus with 8 samples.

Results

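Dlx1, Dlx2, Dlx5 and Dlx6 are the Dlx homeobox genes of the developing forebrain, and their RNA was measured here in the striatum of newborn mice that lack Ctip2 (current symbol Bcl11b). The members were all probe sets that the array's annotation assigns to these 4 genes, each kept separate. There were 4 such probe sets among 45037 on the array, 1 for each gene. Each of 8 Affymetrix arrays held RNA from a different mouse labelled as strain BALB/c at postnatal day 0: 4 Ctip2 null mutants, 1 Ctip2 heterozygote and 3 wild type animals. The tissue was a punch 500 µm across from the centre of the striatum, cut from coronal slices 300 µm thick at matched levels of the brain. The labels do not describe which part of Bcl11b the mutant allele lacks. Values are log2 expression levels per probe set, so that a difference of 1 is a doubling of signal.

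Dlx proteins are homeodomain transcription factors that bind DNA sites with a TAAT core. In the ganglionic eminences, the embryonic source of the striatum, Dlx1 and Dlx2 are made first, in progenitors of the subventricular zone, and Dlx5 and Dlx6 follow as cells leave that zone. Together they drive the programme of neurons that use GABA as their transmitter, and they are needed for the migration of interneurons and for the formation of the striatum. The genes lie in convergent pairs, Dlx1 beside Dlx2 on mouse chromosome 2 and Dlx5 beside Dlx6 on chromosome 6, with shared enhancers between the members of a pair. Ctip2 is a zinc finger protein that regulates transcription; in the striatum it is made by medium spiny neurons, the main projection cells of that region.

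The upstream sequences of Dlx1 and Dlx2, the pair that passed the test below, are shown with that of Dlx6os1, the antisense RNA of the Dlx5 and Dlx6 locus also known as Evf2. RefSeq's promoter table (build GRCm38.p6) matched Dlx1 and Dlx2 and did not list Dlx5 or Dlx6. Each line gives the 250 bases before a transcription start of that table, on the gene's own strand. The Dlx1 and Dlx6os1 windows lie inside the spans that RefSeq gives these genes (chr2:71528113-71533981 and chr6:6820543-6871627), so the starts used are not the outermost ones. Capitals mark every match, on either strand, to 6 motifs: TAATTA, a site form of Dlx homeodomains; CAGCTG and CACGTG, E-box forms; CCAAT, a general promoter element; GGCCGGAGG, reported as a Ctip site; and TGACCA, reported as a site of the related human protein BCL11A. The E-box form CACGTG and CCAAT were added to the search with the sequences in view.
Dlx1 (chr2:71529195-71529444, plus strand): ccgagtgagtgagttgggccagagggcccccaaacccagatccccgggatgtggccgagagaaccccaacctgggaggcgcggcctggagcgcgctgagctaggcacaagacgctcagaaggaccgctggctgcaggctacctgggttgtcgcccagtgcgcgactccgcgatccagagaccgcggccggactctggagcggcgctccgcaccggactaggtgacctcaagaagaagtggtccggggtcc
Dlx2 (chr2:71546755-71547004, minus strand): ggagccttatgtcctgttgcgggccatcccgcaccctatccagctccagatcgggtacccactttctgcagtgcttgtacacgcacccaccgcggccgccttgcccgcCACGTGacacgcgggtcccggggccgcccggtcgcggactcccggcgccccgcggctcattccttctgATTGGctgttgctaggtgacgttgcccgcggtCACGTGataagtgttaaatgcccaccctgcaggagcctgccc
Dlx6os1 (chr6:6869534-6869783, minus strand): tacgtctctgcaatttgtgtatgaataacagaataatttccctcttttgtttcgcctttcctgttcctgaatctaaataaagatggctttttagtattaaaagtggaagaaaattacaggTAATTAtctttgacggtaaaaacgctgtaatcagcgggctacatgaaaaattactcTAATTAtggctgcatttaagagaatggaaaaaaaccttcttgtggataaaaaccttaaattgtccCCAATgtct
The Dlx1 window held 0 matches to the 6 motifs. The Dlx2 window held CACGTG at 2 places, which begin 142 and 42 bases before the start, and CCAAT on the other strand, read as ATTGG, at 74 bases. The Dlx6os1 window held TAATTA at 2 places, 130 and 74 bases before the start, and CCAAT at 9 bases. RefSeq lists another start of Dlx6os1, whose window (chr6:6861684-6861933, minus strand) held TAATTA at 1 place, 174 bases before that start, and none of the other motifs. The window of Dlx6os2, a further antisense RNA of the locus, held 0 matches. The Dlx6os1 window printed is the one with more matches and was chosen with them in view. No 2 matches overlapped within these windows. Of 32851 promoter windows of this length, 4.84% held TAATTA, 6.02% CACGTG, 33.8% CCAAT, 13% CAGCTG, 11.4% TGACCA and 0.664% GGCCGGAGG. The windows also differed in base composition. G and C made up 68% of the Dlx1 window and 66.4% of the Dlx2 window, above 87.8% and 85.2% of all windows, against 33.2% for Dlx6os1, above 3.17%. These matches describe the letters only.

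The arrays of the null group carried less Bcl11b signal on each of the gene's 4 probe sets, with no overlap between null and wild type arrays. Its brightest probe set read 11.18 ± 0.20 (SD, n = 4) in null and 12.29 ± 0.25 (SD, n = 3) in wild type striatum, a log2 difference of -1.11 (limma adjusted p = 0.00911). The spread of all log2 values within an array differed between arrays, with an SD of 1.90 to 2.05 in null arrays, 2.06 in the heterozygote and 1.84 to 1.97 in wild type arrays. Array medians lay between 6.21 and 6.35.

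Dlx1 and Dlx2 were higher in null striatum, and Dlx5 and Dlx6 did not pass the test. The test was limma fitted to all 45037 probe sets on the 4 null and 3 wild type arrays, with Benjamini-Hochberg adjustment over all of them and a threshold of 0.05. It called 2 of the 4 Dlx probe sets higher and 0 lower, where 1.87% of all probe sets were called higher, 0.453% lower and 2.32% in either direction. Fitted only to the 22518 probe sets above the median level, it called the same 2 Dlx probe sets and 4.07% of those tested higher. Null and wild type arrays did not overlap on 3 of the 4, with null above, as on 7.7% of all probe sets. The punches hold many cell types, so more cells that make a Dlx RNA and more of that RNA per cell cannot be told apart.

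Dlx1, a factor of eminence progenitors and of some mature interneurons, read 9.37, 9.51, 9.27 and 9.10 in null 1 to 4, 8.62 in the heterozygote, and 7.51, 7.16 and 7.81 in wild type 1 to 3. Every null array stood above every wild type array, the closest pair being 1.29 log2 units apart. The means were 9.31 ± 0.17 (SD, n = 4) in null and 7.49 ± 0.32 (SD, n = 3) in wild type striatum. The log2 difference was 1.82 with a standard error of 0.17 and a lower 95% bound of 1.44, a 3.53-fold rise (limma adjusted p = 0.00136). By p value this probe set stood at place 34 among the 45037, and by size of rise at place 72.

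Dlx2, which acts with Dlx1 and is made earlier in progenitors, read 7.42, 7.93, 8.29 and 7.33 in null 1 to 4, 6.93 in the heterozygote, and 6.43, 6.11 and 6.17 in wild type 1 to 3. Again the groups were apart, here by 0.90 between null 4 and wild type 1, while the null arrays spread more widely than on Dlx1. The means were 7.74 ± 0.45 (SD, n = 4) in null and 6.24 ± 0.17 (SD, n = 3) in wild type striatum. The log2 difference was 1.505 with a standard error of 0.22 and an upper 95% bound of 2.01, a 2.84-fold rise (limma adjusted p = 0.0108). Wild type values of this probe set lay near the array medians, and no detection limit was set.

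**Figure D1:**
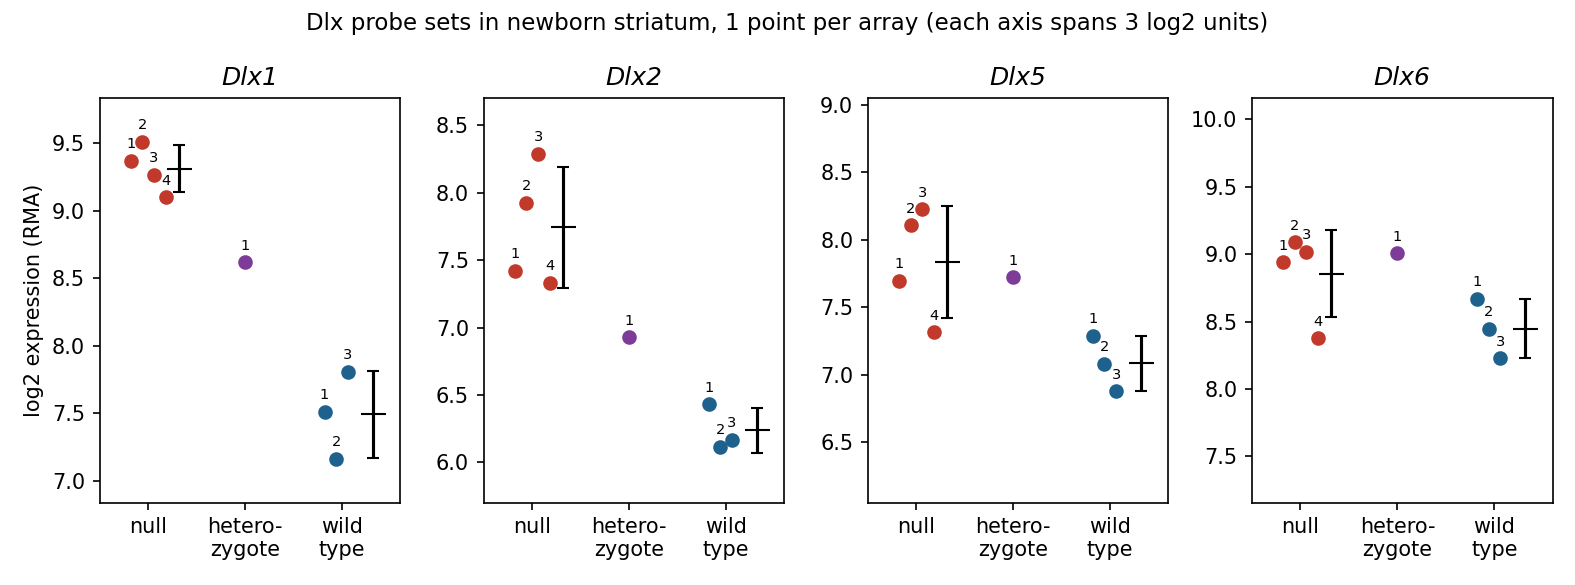
Log2 expression (RMA) of the 4 Dlx probe sets on each array, with 1 point per animal and its number, in null, heterozygote and wild type striatum. Black marks give the mean and SD of each replicated group, and each panel spans the same number of log2 units around its own centre. Null and wild type points are apart on Dlx1 and Dlx2, almost touch on Dlx5, where null 4 reads 7.31 and wild type 1 reads 7.29, and overlap on Dlx6.

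Dlx5, which follows Dlx1 and Dlx2 as cells leave the ventricular layers, read 7.70, 8.11, 8.23 and 7.31 in null 1 to 4, 7.72 in the heterozygote, and 7.29, 7.08 and 6.88 in wild type 1 to 3. The lowest null array exceeded the highest wild type array by only 0.02. The means were 7.84 ± 0.42 (SD, n = 4) in null and 7.08 ± 0.21 (SD, n = 3) in wild type striatum, a log2 difference of 0.75 with a 95% interval of 0.27 to 1.24. The limma adjusted p was 0.113. By its unadjusted limma p of 0.00626 this probe set stood at place 2491 among the 45037, with both directions counted. At the looser limit of an unadjusted p under 0.05, 10.9% of all probe sets were higher.

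Dlx6, the convergent neighbour of Dlx5, read 8.94, 9.09, 9.02 and 8.38 in null 1 to 4, 9.01 in the heterozygote, and 8.67, 8.45 and 8.23 in wild type 1 to 3. Here null 4 lay among the wild type arrays while null 1, 2 and 3 lay above them. The log2 difference was 0.41 with a 95% interval of -0.02 to 0.83 (limma adjusted p = 0.267), so that neither no change nor a rise of 0.83 lies outside the interval. On all 4 genes null 4 was the lowest null array, and on Dlx2, Dlx5 and Dlx6 wild type 1 was the highest wild type array. Null 4 also had the narrowest spread of values among the null arrays, with an SD of 1.90, and wild type 1 the widest among the wild type arrays, with 1.97. What part the array-wide spread has in the Dlx values was examined only by adding it to the fit and by quantile normalization, as given below.

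The chromosome 2 pair differed more between genotypes than the chromosome 6 pair. For each of 6 pairs of genes, the difference between their probe sets was taken within each array, and the null and wild type means of that difference were compared by an exact two-sided permutation test over the 35 ways to divide the 7 arrays. The change of Dlx1 exceeded that of Dlx5 by 1.07 with a standard error of 0.29, and that of Dlx6 by 1.41 with a standard error of 0.25. The change of Dlx2 exceeded that of Dlx5 by 0.75 with a standard error of 0.11, and that of Dlx6 by 1.10 with a standard error of 0.20. Each of these 4 had an exact p of 0.0286, the smallest this design allows, and an adjusted p of 0.0429 over the 6 pairs. Within the pairs the changes could not be separated: Dlx1 exceeded Dlx2 by 0.32 with a standard error of 0.30 (exact p = 0.314, adjusted p = 0.314), and Dlx5 exceeded Dlx6 by 0.34 with a standard error of 0.11 (exact p = 0.0571, adjusted p = 0.0686). Probe sets can respond unequally to the same change in RNA, and that was not tested.

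Dlx6os1 and Dlx1as, antisense RNAs of the 2 loci, had differences above 1 that did not pass and that moved with single arrays, and Dlx6os2 had a small one. Dlx6os1, which starts between Dlx5 and Dlx6 and binds Dlx2 protein in the mouse forebrain, read 8.09, 8.51, 8.06 and 6.54 in null 1 to 4, 7.76 in the heterozygote, and 6.09, 5.74 and 6.62 in wild type 1 to 3. Null 1, 2 and 3 stood well above the wild type arrays, while null 4 lay just below wild type 3. The log2 difference was 1.65 with a 95% interval of 0.73 to 2.57 (limma adjusted p = 0.0735). Without null 4 it was 2.07 (adjusted p = 0.00364). Without wild type 2 the difference was 1.44, and with the spread of each array in the fit 1.03 (adjusted p = 0.264 and 0.472). Dlx6os1 was called in 3 of 17 alternative fits.

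Dlx1as, transcribed from the strand opposite Dlx1, read 7.60, 8.70, 7.72 and 7.14 in null 1 to 4, 7.32 in the heterozygote, and 6.87, 5.85 and 7.41 in wild type 1 to 3. Its groups overlapped, with a log2 difference of 1.08 and a 95% interval of 0.18 to 1.98 (limma adjusted p = 0.199). Without wild type 2 the difference was 0.65, and with the spread of each array in the fit 0.55 (limma adjusted p = 0.516 and 0.822). It was 1.43 without wild type 3 and 1.29 without null 4 (limma adjusted p = 0.205 and 0.106). Dlx1as was called in 0 of 17 alternative fits. Dlx6os2, named after its values were seen, differed by -0.24 (limma adjusted p = 0.388). In RefSeq the Dlx1 gene overlaps Dlx1as, and the Dlx6 gene overlaps Dlx6os1 and Dlx6os2. Whether a probe set also reads RNA of the overlapping gene was not tested.

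Dlx3 and Dlx4, the family members that serve skin, placenta and skeleton rather than forebrain, did not pass on any of their probe sets. The Dlx3 probe sets differed by 0.01 and -0.08, and the Dlx4 probe sets by -0.27 and -0.20 (limma adjusted p from 0.332 to 0.964). Their means lay between 5.57 and 6.52 in null and between 5.77 and 6.51 in wild type arrays, near or below the array medians. The null and wild type arrays did not overlap on the brighter Dlx4 probe set, with null below, as on 8.85% of all probe sets. Across the whole array the median log2 difference was -0.08.

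**Figure D2:**
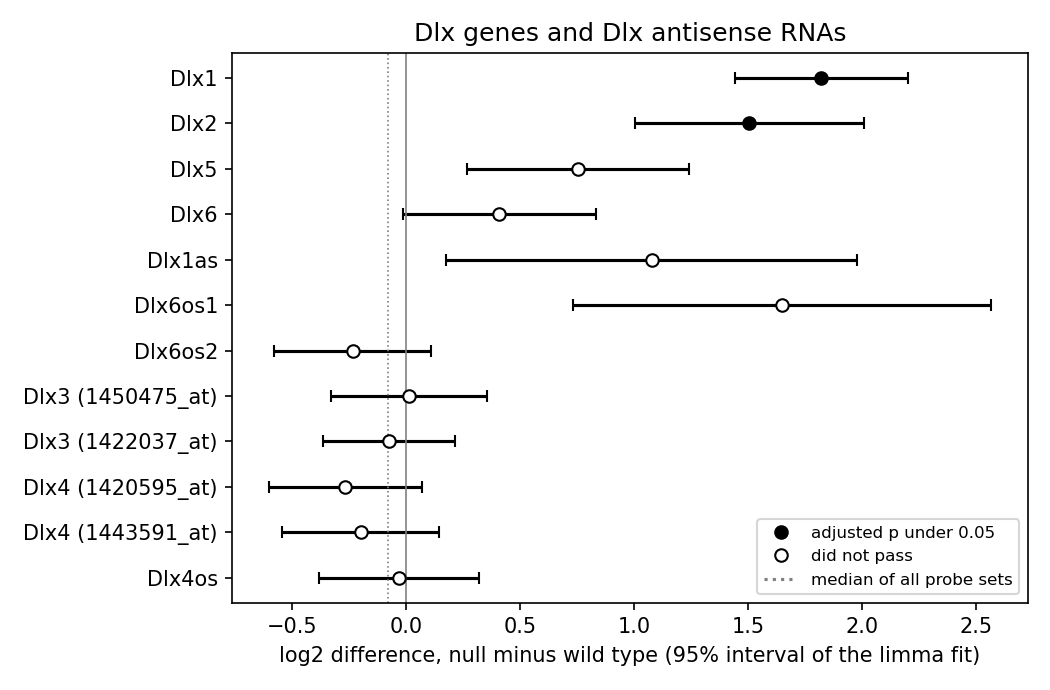
Log2 difference, null minus wild type, of every probe set annotated to a Dlx gene or Dlx antisense RNA, with the 95% interval of the limma fit. Filled points passed an adjusted p of 0.05 and the dotted line is the median of all probe sets. Dlx1 at 1.82 and Dlx2 at 1.505 are the filled points, Dlx6os1 at 1.65 and Dlx1as at 1.08 have wide intervals, and Dlx3 and Dlx4 lie near the dotted line.

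The single heterozygote lay above the highest wild type array on each of the 4 Dlx genes. How often this array does so over all probe sets was not counted. It stood at 61.9% of the way from the wild type mean to the null mean on Dlx1, 45.9% on Dlx2, 85% on Dlx5 and 137% on Dlx6. Of the 840 probe sets called higher in null striatum, the heterozygote lay past the midpoint on 78.1%, with a median position of 78.1%. On the brightest Bcl11b probe set it read 12.43, at the wild type level. This array had the widest spread of values of all 8, and with 1 animal the position carries no error and no test.

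The rise of Dlx1 was called in each of 17 alternative fits, with log2 differences from 1.54 to 1.98 and adjusted p values from 0.000287 to 0.0398. Dlx2 was called in 13 of 17, with differences from 1.08 to 1.64. It missed the threshold without wild type 2 (adjusted p = 0.0558), without wild type 3 (adjusted p = 0.0633), with the heterozygote among the controls (adjusted p = 0.0515) and with wild type 1 and null 2 left out because their Ttr was highest (adjusted p = 0.0581). With the SD of each array added to the fit, the differences were 1.69 for Dlx1 (adjusted p = 0.0194), 1.08 for Dlx2 (adjusted p = 0.0422), 0.34 for Dlx5 (adjusted p = 0.527) and 0.08 for Dlx6 (adjusted p = 0.945). The order of the 4 genes was thus the same in this fit, and the values of Dlx5 and Dlx6 were the ones that shrank by over 1.5 times. Quantile normalization, which gives all arrays the same distribution of values, left Dlx1 at 1.71 and Dlx2 at 1.507 (limma adjusted p = 0.00285 and 0.00765). Under it Dlx5 differed by 0.69 and Dlx6 by 0.22 (limma adjusted p = 0.0959 and 0.396). Dlx5 was called in 3 of 17 fits, among them the fit without null 4 (difference 0.93, adjusted p = 0.0247), and Dlx6 in 0 of 17.

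**Figure D3:**
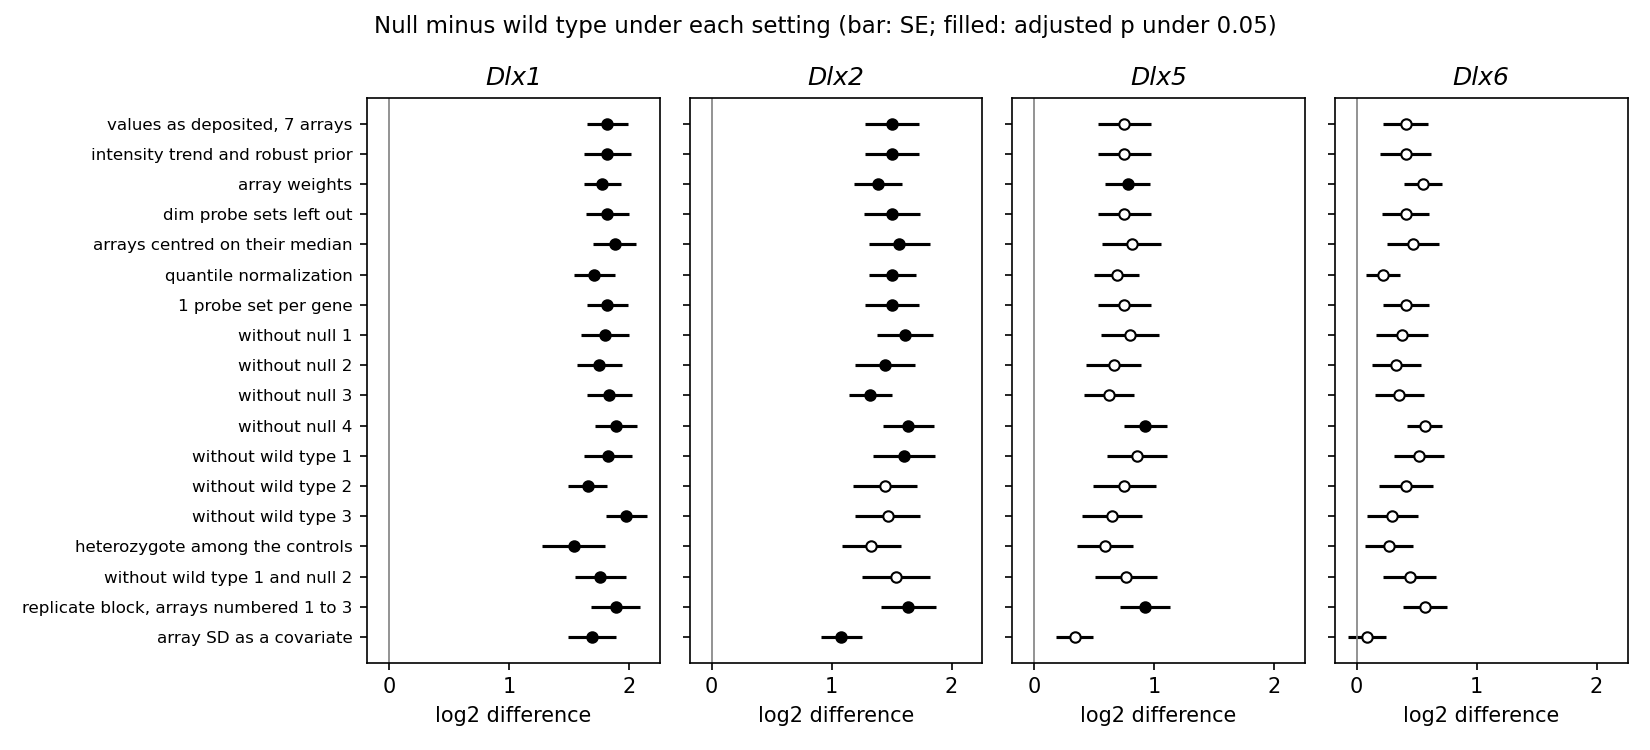
Log2 difference, null minus wild type, of each Dlx probe set (columns) under the deposited values and 17 alternative fits (rows), with bars for the standard error and filled points for an adjusted p under 0.05. All Dlx1 points are filled and lie between 1.54 and 1.98, 4 Dlx2 points below the first row are open, and the Dlx6 points are all open.

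Genes reported to need Dlx activity were more often called higher than lower in null arrays, though most of them missed the threshold. Of 24 measured members of that list 5 rose, 0 fell and 19 did not pass, where 2.38% of 18193 genes, each represented by its brightest probe set, were called higher and 0.676% lower. Null and wild type arrays did not overlap, with null above, on 11 of the 24, as on 8.59% of all genes. On 1 of the 24 null lay wholly below: Npy, a neuropeptide of interneurons, differed by -0.65 (limma adjusted p = 0.131). Sst, which encodes the interneuron peptide somatostatin, differed by -0.29 (limma adjusted p = 0.448), and both were named here after their values were seen. The median log2 difference of the list was 0.62, and that of all genes was -0.08. Gad1, which encodes a GABA-synthesising enzyme and is a target of Dlx proteins, read 11.33, 11.18, 11.65 and 11.16 in null 1 to 4, 11.17 in the heterozygote, and 10.18, 9.89 and 9.68 in wild type 1 to 3. All null arrays exceeded all wild type arrays, by 2.67-fold on average (limma adjusted p = 0.00406).

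Six3, a homeobox gene of striatal precursors, rose 2.58-fold (limma adjusted p = 0.0016), and its heterozygote value of 7.80 lay beside the wild type mean of 7.71. Calb2, which encodes calretinin of interneurons, rose 2.86-fold, and Tshz1, a zinc finger factor of olfactory bulb interneurons, rose 2.13-fold (limma adjusted p = 0.0153 and 0.027). The call of Calb2 was lost in 5 of 17 alternative fits, those without null 2 or wild type 2 among them, and that of Tshz1 in 7, those without null 1 or 3 or wild type 2 or 3 among them. Lhx6, a LIM homeobox gene of interneurons from the medial eminence, rose 2.09-fold, close to the threshold (limma adjusted p = 0.0487), and was called in 6 of 17 alternative fits. Maf, a leucine zipper factor of interneurons, had the largest difference of the list at 1.66 without passing (limma adjusted p = 0.07). Gad2 and Slc32a1, the second GABA-synthesising enzyme gene and the vesicular GABA transporter gene, were named after their values were seen; they differed by 0.73 and 0.72 (limma adjusted p = 0.0632 and 0.0532). With the heterozygote among the controls 1 member was higher, which was Six3, and with the spread covariate 2 were, Gad1 and Six3. The count was 3 without null 1, null 2, wild type 2 or wild type 3, and 9 without null 4.

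Of 12 measured genes reported to be repressed by Dlx proteins, 1 rose and 0 fell, where 2.38% of all genes were called higher and 0.676% lower. Pak3, a kinase of the actin cytoskeleton that mouse Dlx1 and Dlx2 hold down in migrating interneurons, read 10.75, 10.97, 11.44 and 10.66 in null 1 to 4, 10.42 in the heterozygote, and 8.85, 8.56 and 8.86 in wild type 1 to 3. It was thus higher, not lower, in the arrays with more Dlx1 and Dlx2, by 4.58-fold (limma adjusted p = 0.0011). Its call was lost with the heterozygote among the controls (adjusted p = 0.0741), and the count of the list was 2 without wild type 1. Map2, a microtubule protein of dendrites, differed by 0.66 (limma adjusted p = 0.117), and the median of the list was 0.07. Null and wild type arrays did not overlap on 3 of the 12 with null above, as on 8.59% of all genes. On 2 null lay wholly below, as on 8.85% of all probe sets. Tbr1, Otx2 and Olig2, named after their values were seen, averaged 3.14, 4.50 and 5.73 in wild type striatum. These lie below the array medians, where a fall may not be measurable, so the list's median cannot be set evenly against that of other lists.

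Among 13 measured factors and signals upstream of Dlx, 1 rose and 0 fell, where 2.38% of all genes were called higher and 0.676% lower. Pbx3, a TALE homeobox gene, rose 1.78-fold (limma adjusted p = 0.0308), and this call was lost in 8 of 17 alternative fits, among them those without null 1, 2 or 3 or wild type 2 or 3. The count of the list was 2 without wild type 1, and also 2 where the probe set of lowest p stood for its gene. Meis2, also of the TALE class, differed by 0.57 (limma adjusted p = 0.0633). Gsx2, the homeobox gene that acts before Dlx in the lateral eminence, was named after its values were seen and differed by -0.30 (limma adjusted p = 0.379).

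The genes beside the Dlx pairs had differences of both signs, and whether they shifted together was not tested. Of 11 measured neighbours 1 rose and 0 fell, where 2.38% of all genes were called higher and 0.676% lower. The median difference of the neighbours was 0.14, with 6 of 11 above 0. Metap1d, the protein-coding gene next to Dlx1, differed by -0.12 (limma adjusted p = 0.581), while Itga6, a laminin receptor subunit gene next to Dlx2, rose 2.76-fold (limma adjusted p = 0.0158). Itga6 read 7.97, 7.85, 8.85 and 8.11 in null 1 to 4, 7.37 in the heterozygote, and 7.03, 6.69 and 6.47 in wild type 1 to 3, and its call was lost in 4 of 17 alternative fits, with wild type 2 or 3 left out among them. On chromosome 6, Sem1 next to Dlx6 differed by -0.22 (limma adjusted p = 0.396), and Sdhaf3 next to Dlx5 by 0.80 (limma adjusted p = 0.254). Metap1d and Sem1 were named after their values were seen, because they stand next to a Dlx gene.

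**Figure D4:**
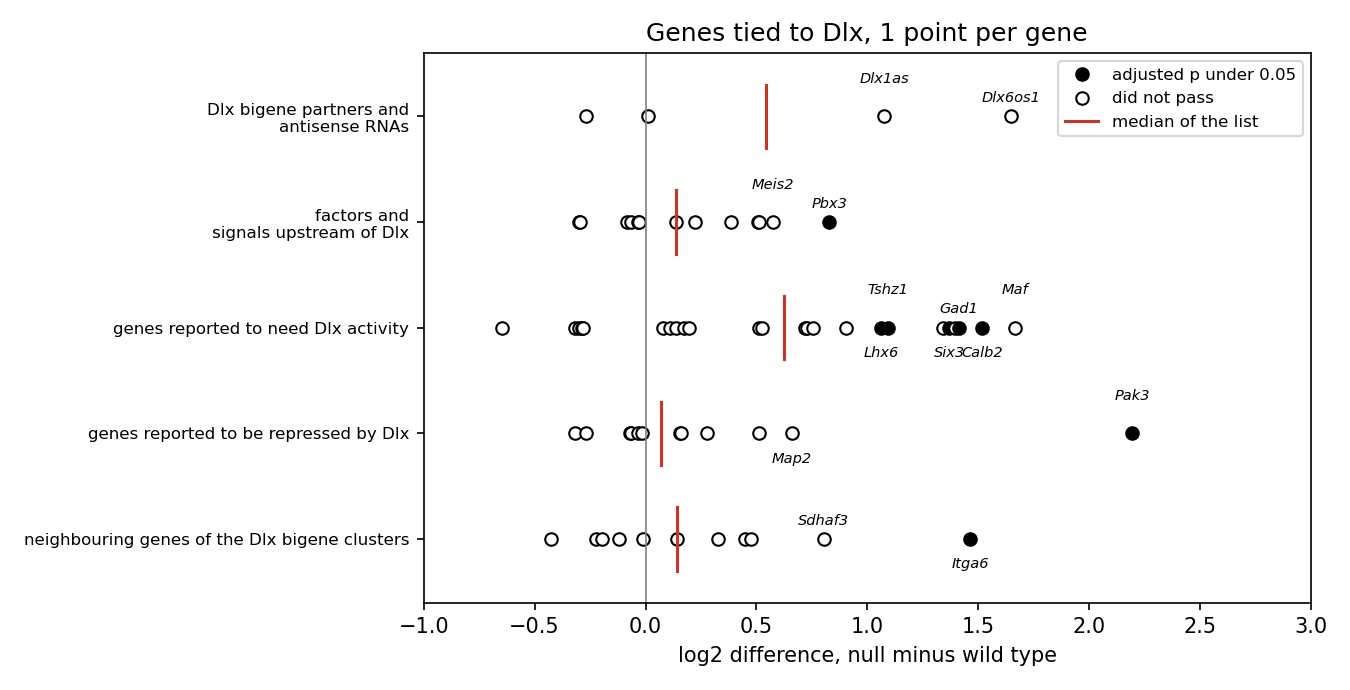
Log2 difference, null minus wild type, of the genes on 5 lists tied to Dlx (rows), 1 point per gene, filled where the adjusted p was under 0.05, with a red line at each list's median. Filled points are all to the right of 0, and the list of genes reported to need Dlx activity has its median at 0.62. The median of the genes reported to be repressed is 0.07, and some of these read below the array medians.

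Markers of some other cells differed alongside the Dlx genes, and most of these counts turned on single arrays. The shares to set beside them are those of all genes, 2.38% called higher and 0.676% lower. Migrating neuroblasts and olfactory bulb interneurons make Dlx RNAs in the newborn forebrain. Of 13 markers of theirs 3 rose (Calb2, Tshz1 and Dcx, the last a microtubule protein of young neurons, 1.58-fold, limma adjusted p = 0.0497) and 0 fell, with a median difference of 0.32 and 9 of 13 above 0. The count of risers was 0 without wild type 2, with the heterozygote among the controls or with the spread covariate, 1 without null 1, null 2 or wild type 3, and 5 without null 4.

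The mean log2 level of these 13 markers was 8.17 to 8.32 in null arrays, 8.21 in the heterozygote and 7.76 to 7.90 in wild type arrays. The brightest probe sets of the list, those of Nrep and Cd24a, differed by 0.32 and 0.35, and Tiam2, lowest of the list, by -0.55 (limma adjusted p = 0.282, 0.177 and 0.269). Sp8 and Robo2 of this list read 4.09 and 3.60 in null and 3.95 and 3.49 in wild type striatum, far below the array medians. Of 9 markers of interneurons from the medial eminence 1 rose (Lhx6) and 0 fell, with a median difference of -0.10 and 4 of 9 above 0. The brightest probe sets of that list, those of Npy and Sst, gave the negative differences stated above. The mean level of the 9 markers was 7.74 to 7.96 in null arrays, 8.05 in the heterozygote and 7.41 to 7.74 in wild type arrays. The count was 0 without null 1, null 2, null 3, wild type 1 or wild type 3, and 2 without null 4. The part of these cells in the Dlx result was not tested.

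Of 10 markers of proliferating progenitors, the cells in which Dlx2 begins, 0 passed in either direction, a count that the shares of all genes would also give. Their mean level was 7.40 to 7.77 in null arrays, 7.84 in the heterozygote and 7.56 to 7.86 in wild type arrays, and the brightest probe sets, those of Pcna and Ccnd2, differed by 0.16 and -0.22. Of 12 radial glia and astrocyte markers 3 rose and 0 fell: Prom1 2.48-fold, Slc1a2 1.72-fold and Sox2 1.61-fold (limma adjusted p = 0.0154, 0.0478 and 0.0459). That count was 0 without null 2, without wild type 3, with the heterozygote among the controls or with the spread covariate, and 1 without null 1, null 3 or wild type 2. The mean level was 8.71 to 8.86 in null arrays, 8.76 in the heterozygote and 8.42 to 8.63 in wild type arrays, and the brightest probe sets, those of Fabp7 and Aldoc, differed by 0.33 and 0.26.

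Of 12 medium spiny neuron markers 4 fell (Gng7, Ppp1r1b, Pde10a and Drd1) and 0 rose, with a mean level of 9.45 to 9.61 in null arrays, 10.38 in the heterozygote and 9.75 to 9.95 in wild type arrays. The number that fell was 2 without null 1, null 2 or wild type 2, without both wild type 1 and null 2, and with the spread covariate, and 1 marker was higher where the probe set of lowest p stood for its gene. The brightest probe sets of this list, those of Foxp1 and Tac1, averaged 12.12 and 11.82 in null and 12.34 and 11.68 in wild type striatum.

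Of 8 microglia markers 0 passed, but null lay above wild type without overlap on 4, as on 8.59% of all genes, with a median difference of 0.37. Their mean level was 6.93 to 7.30 in null arrays, 6.85 in the heterozygote and 6.80 to 6.88 in wild type arrays, and 1 marker was called higher without null 3 or null 4. The brightest probe sets, those of Csf1r and C1qb, differed by 0.67 and 0.12 (limma adjusted p = 0.135 and 0.732). Endothelial markers averaged 6.89 to 7.45 in null arrays, 7.33 in the heterozygote and 6.79 to 6.999 in wild type arrays, with 0 of 7 called, and Cldn5 and Esam differed by 0.03 and 0.49.

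Markers of oligodendrocytes, cortical projection neurons, choroid plexus and blood passed in neither direction, 0 of 7, 8, 7 and 3. Their mean levels overlapped between null and wild type arrays except for the cortical list, which was 5.08 to 5.24 in null arrays, 4.96 in the heterozygote and 5.26 to 5.34 in wild type arrays. All these cortical means lie below the array medians, the lowest of which was 6.21. The median difference of the cortical list was -0.16, where that of all genes was -0.08. The brightest probe sets differed by -0.07 and 0.31 for Olig1 and Mbp of oligodendrocytes, and by -0.19 and -0.28 for Neurod2 and Emx1 of cortical neurons. They differed by -0.06 for Clic6 of choroid plexus, and by 0.17 and -0.07 for Alas2 and Slc4a1 of blood. Ttr, the brightest choroid plexus probe set, ranged from 7.11 to 13.44 in null arrays and from 9.38 to 13.34 in wild type arrays, and its highest values were in null 2 and wild type 1. What these cells contribute to the Dlx result was not tested.

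**Figure D5:**
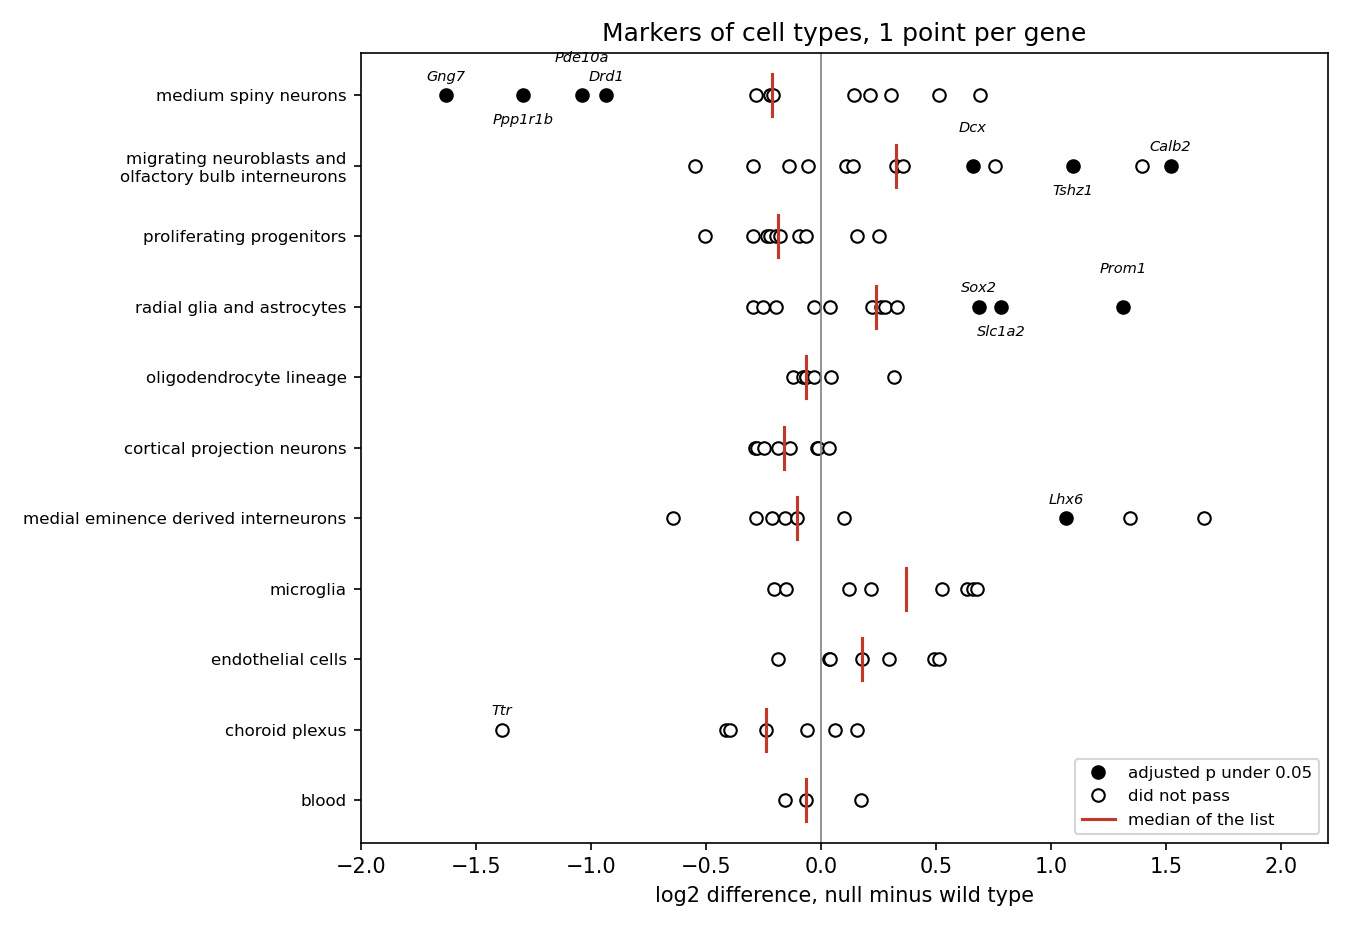
Log2 difference, null minus wild type, of markers of 11 cell types (rows), 1 point per gene, filled where the adjusted p was under 0.05, with a red line at each list's median. The filled points are 4 lower medium spiny neuron markers and higher markers of neuroblasts, radial glia and medial eminence interneurons, while the proliferating progenitor row has open points only.

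The genes whose levels followed each Dlx gene most closely over the 8 arrays differed from gene to gene. Likeness is given as Pearson's r over the 8 arrays, across 18192 other genes, as a description: the r includes the genotype difference and the spread of each array. Zfp503 (a zinc finger gene also called Nolz1), Resp18 (a protein of secretory granules) and Lancl3 were most like Dlx1, with r of 0.99 each. Chst1 (a sulfotransferase), Pknox2 (a TALE homeobox gene) and Negr1 (a neuronal adhesion protein) were most like Dlx2, also at 0.99. N4bp2, Pkp4 and Xrn1 (an exoribonuclease) led for Dlx5 at 0.99, and Lpar2 (a lysophosphatidic acid receptor gene), Zcchc18 and Smim10l1 for Dlx6 at 0.98. Of the Dlx genes themselves, Dlx5 and Dlx6 had an r of 0.92, Dlx1 and Dlx2 of 0.92, Dlx2 and Dlx5 of 0.92, Dlx1 and Dlx5 of 0.79, Dlx2 and Dlx6 of 0.72, and Dlx1 and Dlx6 of 0.63. Dlx2 stood at place 201 in likeness to Dlx1, and Dlx6 at place 368 in likeness to Dlx5, so that many genes outside the family followed each member more closely than its neighbour did.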

How the data were processed

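Total RNA from striatal punches was hybridised to 1 Affymetrix array per mouse. The authors deposited log2 expression levels, which per the series' own description came from RMA in Bioconductor; this method subtracts background, sets probe intensities to a shared distribution and combines the probes of a set. Its version, and whether all arrays went in together, are not stated in the sources used here. The values were used as deposited. Because RMA brings arrays to like distributions, and these still differed in SD, an array-wide difference in spread remains and can move many probe sets together.

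Of 45037 probe sets, 34945 carry 1 symbol in the platform annotation, 932 several and 9160 none; symbols were updated by gene ID (RefSeq, assembly GRCm38.p6). For lists, the brightest probe set (by its mean in null and wild type arrays) that carries 1 symbol stood for its gene, which gave 18193 genes. Groups were compared with limma 3.58.1 (lmFit and eBayes, R 4.3.3) on 4 null and 3 wild type arrays, without a covariate and with the heterozygote left out, after a check on simulated data. Figures used matplotlib 3.10.9. Each array is 1 animal, and their number limits the precision.

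The members and the gene lists were chosen with earlier results of these data known. The 16 lists, written from general knowledge, hold 150 genes, 26 of them on more than 1 list, and 15 of those on the list of genes reported to need Dlx activity are also on another. The genes named were the members, Bcl11b, the passing members (up to 6) and the 2 largest differences of each Dlx list, the 2 brightest and up to 2 passing markers of each cell type, and the 3 genes most alike each member, leaving out predicted models; further passing markers of a cell type (Sox2, Pde10a, Drd1 and Dcx), Tiam2, Sp8, Robo2 and a few genes marked in the text were named beyond that rule after their values were seen. Alternatives were other tests (a SAM score, an intensity trend, array weights), other values (a filter on dim probe sets, median centring, quantile normalization, 1 probe set per gene), other samples (each array left out, the heterozygote as a control or a group, the arrays of highest Ttr left out), the replicate number as a block and each array's SD as a covariate. Leaving out single arrays for lists and for differences between genes was added after seeing the data.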

Additional observations from a re-analysis of the deposited data

Results flagged for a closer look

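Among the 4 null arrays, 1 value stood apart on 2 of 16 probe sets of Dlx genes, Dlx antisense RNAs and Bcl11b, judged by its gap to the nearest other array as a share of the whole range; chance alone marks about 1 in 20. Null 3 read 9.24 on the Bcl11b probe set of largest difference, where the other null arrays read 8.17 to 8.33 and the lowest wild type array 9.84. On the brighter Dlx4 probe set null 3 read 5.84, where the other null arrays read 6.26 to 6.34. The 4 probe sets of Dlx1, Dlx2, Dlx5 and Dlx6 had no such array.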

How the results depend on the processing

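With 4 null and 3 wild type arrays, 1 array can decide a call, and no detection limit can be set without probe-level signals. No result changed direction. Of the 4 Dlx probe sets, 2 were called higher, and 1 was without wild type 2 or 3, with the heterozygote among the controls, without wild type 1 and null 2, or at an adjusted p under 0.01; the count ran from 1 to 3 over single arrays left out. The Dlx2 difference, 1.32 to 1.64 over single arrays left out, was 1.33 with the heterozygote among the controls and 1.54 without wild type 1 and null 2, and missed the threshold in both. Dlx5, 0.62 to 0.93 over single arrays left out, passed with array weights (0.78) and without null 4. Same-numbered null and wild type arrays did not deviate together (correlations -0.25, -0.31 and -0.17). Arrays of different number were not compared, so this cannot decide whether the numbers pair them. With the replicate number as a block, which leaves out null 4, Dlx5 differed by 0.93 (adjusted p = 0.0388). Dlx1, Dlx2 and Dlx6 kept their side of the threshold in that fit, while 1696 probe sets were called higher and 212 lower, against 840 and 204. The number of Bcl11b probe sets called lower, 4, ran from 1 to 4 over single arrays left out and was 1 without wild type 1 and null 2. With the heterozygote among the controls, the change of Dlx5 exceeded that of Dlx6 by 0.32, past the threshold (exact permutation test, adjusted p = 0.0343). The causes were not tested. Probe sets called higher numbered 2686 with array weights, 548 with median centring, 110 with the heterozygote among the controls, 412 without wild type 1 and null 2, 189 with the spread covariate, 1455 by a SAM score beyond 2 and 210 to 1733 over single arrays left out; those called lower numbered 965, 124, 96, 62, 93, 346 and 76 to 443. Quantile normalization gave 821 higher and 318 lower, and adjustment over 1 probe set per gene 521 and 143. With dim probe sets left out, 917 of 22518 were called higher and 182 lower. Of 352 list counts under alternatives, 293 stayed within 1.5 times and 59 moved further. Most of the counts were 0 to begin with, and a 0 that stayed 0 is among the 293. That share therefore says little about the counts above 0, which often moved, as given with the lists. Averaging the probe sets of a gene was not run, since each gene has 1.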
